A study of Mus musculus with 6 samples.

Results

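Rad21-/- macrophages were compared between the untreated state and 2 h of lipopolysaccharide (LPS), in 451 of the 1362 single cells of the series. The members are all cells that the column names place in the untreated and 2 h Rad21-/- samples, less those with more than 25000 unique molecular identifiers (UMIs), which left 267 untreated cells and 184 cells at 2 h. Bone marrow cells were grown into macrophages in medium with L929-conditioned medium, which supplies the growth factor M-CSF, and LPS was given at 10 ng/ml on day 7. All samples, wild-type ones included, carried creERT2 on both copies of the Rosa26 locus and received 200 nM 4-hydroxy-tamoxifen after 96 h of culture, and the Rad21 gene was deleted in culture in the cells of floxed Rad21 mice. Single cells were sorted into wells and sequenced by MARS-seq, which counts the 3′ ends of transcripts by UMI.

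Cohesin is a ring-shaped protein complex that extrudes loops of chromatin and brings enhancers near promoters, and RAD21 is the subunit that closes the ring. LPS is sensed by TLR4 on macrophages, and the signal passes through MyD88 and TRIF to NF-kB, to MAP kinases and to IRF3. Early targets of these factors are chemokines, cytokines and the inhibitors that later switch the signal off. The comparison asks which parts of this early programme took place in cells whose Rad21 gene had been deleted. Deletion in culture need not be complete. The study reports that the same approach removed most floxed Rad21 alleles and most RAD21 protein, with a uniform loss of protein across cells. Remaining RAD21 protein was not measured in the cells compared here.

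Each condition was 1 sample, so no difference reported here has a replicate check, and no p-value is given. UMIs were summed over the cells of a sample and scaled to the sample's total, as CPM. Intervals are at 95% and cover counting error only. The untreated sample held 1647811 UMIs and the 2 h sample 1248357, with medians of 5544 and 5982.5 UMIs per cell. The cells came from 8 library pools untreated and from 7 pools at 2 h, of which 4 held at least 10 cells and are given pool by pool. No pool held both time points, so a difference between pools and a difference between times cannot be told apart. The 2 samples shared no well. Rad21 itself had 9 UMIs in the untreated cells and 10 at 2 h, or 5.46 and 8.01 CPM, against 64.3 and 50.9 CPM in wild-type cells. Where the deleted part of Rad21 lies relative to the counted 3′ end is not given in the sources used here. All 12 macrophage markers were present, among them Lyz2, Cd68 and Csf1r, and their summed level was 13186 CPM untreated and 13829 CPM at 2 h. The neutrophil marker S100a8 had 1 UMI in each sample. Of 10 B cell markers 4 were in the matrix, with a summed level of 198 CPM untreated and 200.3 CPM at 2 h, nearly all from Ighm, and of 12 markers of T and NK cells 4 were, at 24.3 and 28.0 CPM.

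Of the 18429 genes in the matrix, 5005 had at least 100 UMIs over both samples and a UMI in at least 5% of the cells, and are called tested below in the sense of deep enough to describe. A gene nearly absent untreated can pass this limit through its 2 h UMIs alone. The share of higher genes among the tested members of a list can therefore be raised by the limit itself. Their median log2 ratio of 2 h over untreated, with 1 UMI added to each sum, was -0.01, and 87.2% of them lay within 1.5-fold. At 2 h, 176 genes were at least 2-fold higher, which is 3.52% of the tested genes, and 44 were at least 2-fold lower, which is 0.879%. These shares are the background for the counts of each list below, and the lists were chosen with earlier results of these data known. The higher genes also moved further. Of the 176, 80 were at least 4-fold higher, 51 at least 8-fold and 21 at least 32-fold, whereas 4 of the 44 lower genes passed 4-fold. The counting interval lay apart from no change for all 176 higher and all 44 lower genes. With at least 100 UMIs over both samples, a 2-fold difference already implies this, so it is no further check of these genes. For 14 of the lower genes the interval lay wholly past 2-fold. Genes of the higher set made up 0.81% of all UMIs untreated and 4.92% at 2 h. Just inside the upper threshold lay Btg2, Gramd1a and Plekho2, with log2 ratios from 1.00 to 1.02, and just outside it lay Srsf5, Mylip and Zdhhc5, with log2 ratios from 0.99 to 1.00.

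**Figure D1:**
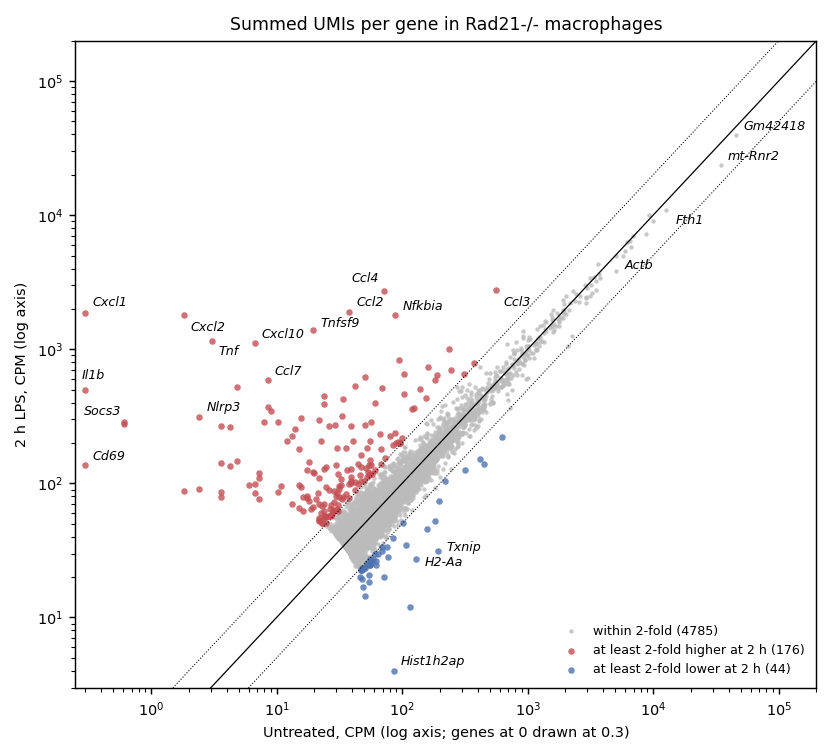
Level of each of the 5005 tested genes in CPM, untreated on the horizontal axis and after 2 h of LPS on the vertical axis, both logarithmic, with the solid line at equality and dotted lines at 2-fold. The 176 red genes lie above the upper dotted line and reach far from it at the left, where Cxcl1, Il1b and Cd69 had no UMI untreated, while most of the 44 blue genes lie close to the lower line.

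Chemokines, the secreted proteins that call neutrophils and monocytes into tissue, showed the widest changes. Of 5 tested CXC chemokines 4 were at least 2-fold higher, and of 7 tested CC chemokines 6 were, with median log2 ratios of 7.26 and 5.22 and none lower. The matrix held 9 CXC and 12 CC chemokines, and some of the tested ones passed the depth limit only through their 2 h UMIs. Cxcl1, which attracts neutrophils through CXCR2, had 0 UMIs in the 267 untreated cells, which allows a level of up to 1.82 CPM, and 1871 CPM at 2 h (95% Poisson interval 1796 to 1949). This is 1028-fold above that limit, and the counting interval of the log2 ratio began at 9.71. In the 4 pools at 2 h its level was 1694, 1801, 1868 and 2317 CPM, and in all 8 untreated pools it was 0. Cxcl2, the neighbouring neutrophil attractant, went from 3 UMIs to 2244, or from 1.82 to 1798 CPM, a log2 ratio of 9.53 with a counting interval from 8.40 to 12.23. Cxcl10, which draws T cells through CXCR3, went from 11 to 1391 UMIs, a log2 ratio of 7.26. Pf4, a chemokine that resting macrophages already make, was at a log2 ratio of 0.28.

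The CC chemokines started from a range of levels. Ccl4, which attracts monocytes and T cells, was at 71.6 CPM untreated and at 2699.55 CPM at 2 h, a log2 ratio of 5.22, and its 4 pools at 2 h lay between 2139.6 and 3143 CPM while the 8 untreated pools lay between 38.8 and 112.6 CPM. Ccl3, its neighbour with a like role, was already at 558 CPM untreated and reached 2777 CPM, a log2 ratio of 2.31. Ccl2 and Ccl7, which recruit monocytes through CCR2, had log2 ratios of 5.64 and 6.01, and Ccl2 went from 37.6 to 1900.1 CPM. Ccl6 was at a log2 ratio of -0.25. For all of these chemokines except Ccl6 and Pf4 the 2 h pools lay above every untreated pool. Over all tested genes this complete separation upward held for 3.12%, and among the 176 higher genes it held for 135.

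**Figure D2:**
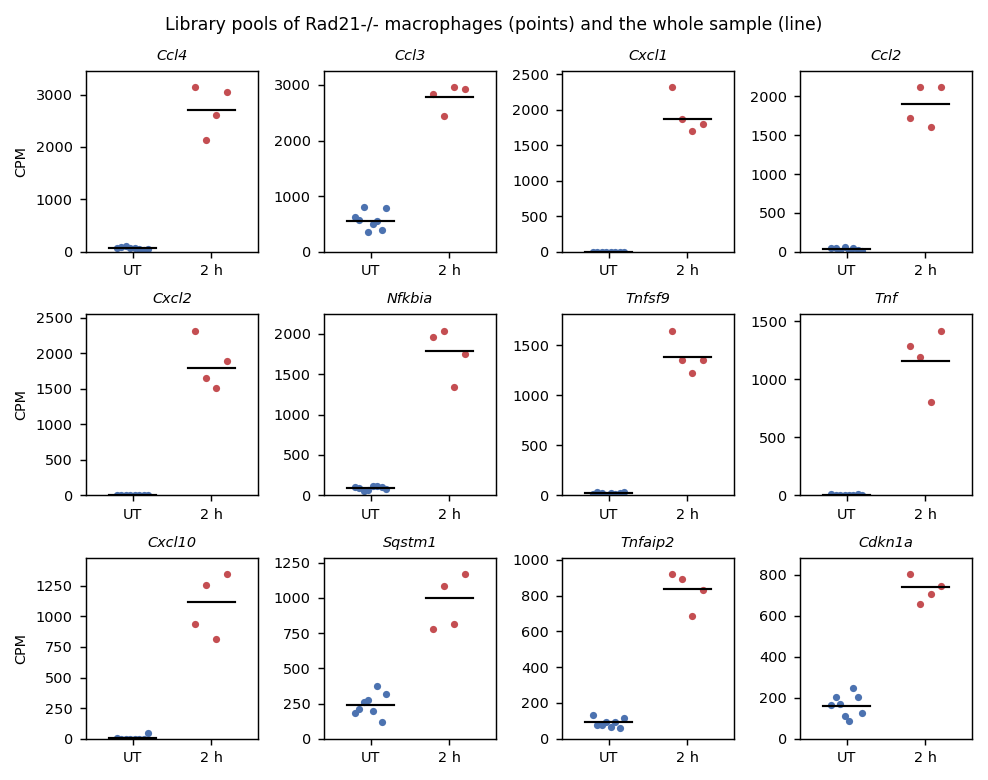
CPM in each library pool of at least 10 cells for the 12 genes with the largest gain in CPM among those at least 2-fold higher, untreated (UT, 8 pools, blue) and at 2 h (4 pools, red), with a black line at the level of the whole sample. In each of the 12 panels every red point lies above every blue point, and Ccl3 has the highest untreated pools in CPM, while those of Sqstm1 come closest to its 2 h pools.

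Promoters are shown because several of these genes carry the motif that NF-kB binds, kappaB, close to the start site. RefSeq promoters on GRCm38.p6, from 250 bases before to 50 bases after the start site, were at hand for 10 of the 16 genes with the highest ratios or the largest gains, and 5 of the 10 held a match to the kappaB motif before the start site, searched on both strands. The stretches below run 5′ to 3′ on the gene's strand and end at the base before the start site, and capitals mark the kappaB match or overlapping matches. They are Cxcl1 at chr5:90891125-90891244 (plus strand), Cxcl2 at chr5:90903779-90903898 (plus), Cxcl10 at chr5:92348890-92349068 (minus), Nfkbia at chr12:55492648-55492767 (minus) and the second of the Nlrp3 promoters in the table at chr11:59541363-59541568 (plus).
Cxcl1: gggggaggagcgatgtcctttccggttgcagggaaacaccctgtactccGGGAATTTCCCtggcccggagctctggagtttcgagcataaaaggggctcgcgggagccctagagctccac
Cxcl2: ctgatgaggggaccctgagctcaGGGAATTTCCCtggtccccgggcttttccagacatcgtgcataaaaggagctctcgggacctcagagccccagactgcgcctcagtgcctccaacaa
Cxcl10: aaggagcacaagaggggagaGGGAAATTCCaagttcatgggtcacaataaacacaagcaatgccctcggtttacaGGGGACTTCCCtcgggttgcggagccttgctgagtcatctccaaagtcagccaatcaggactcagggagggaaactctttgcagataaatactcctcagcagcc
Nfkbia: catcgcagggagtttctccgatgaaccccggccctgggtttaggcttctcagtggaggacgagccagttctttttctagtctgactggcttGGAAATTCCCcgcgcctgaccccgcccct
Nlrp3: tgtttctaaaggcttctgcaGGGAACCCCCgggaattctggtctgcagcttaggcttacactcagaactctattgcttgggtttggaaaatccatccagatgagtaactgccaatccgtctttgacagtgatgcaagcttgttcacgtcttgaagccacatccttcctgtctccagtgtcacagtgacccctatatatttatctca
Cxcl1 and Cxcl2 share the same run of 11 capitals, which begins 71 bases before the start site in Cxcl1 and 97 bases before it in Cxcl2. No match lay in the window of Il1b, Tnf, Socs3, Irg1 or Ccl3. Of 180 promoters that the table holds for higher genes, 45 or 25% held a kappaB match, compared with 11.1% of the 4447 promoters of tested genes and 8.46% of all 32851 promoters in the table. For genes at least 8-fold higher the share was 30% of 50 promoters. The interferon-response motif ISRE, searched as GAAANNGAAA on both strands, was in 6.67% of the promoters of higher genes and in 3.44% of those of all tested genes. These shares are descriptions of letters and not of bound sites.

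Among cytokines and growth factors, 6 of the 24 genes in the matrix were tested, some of them only through their UMIs at 2 h. Of the 6, 5 were at least 2-fold higher, with a median log2 ratio of 3.70. Tnf, the founding member of the tumour necrosis factor family, had 5 UMIs untreated and 1448 at 2 h, or 3.03 and 1160 CPM, a log2 ratio of 8.32 with an interval from 7.35 to 10.20. Its level in the 2 h pools was 802, 1193, 1286 and 1418 CPM, and no untreated pool passed 9.69 CPM. Il1b, the precursor of interleukin 1 beta, had 0 UMIs untreated and 622 at 2 h, or 498 CPM. This is 274-fold above the limit of 3 counts untreated, and the counting interval of the log2 ratio began at 7.79. Tnfsf9, the ligand of the costimulatory receptor 4-1BB, went from 19.4 to 1385 CPM, a log2 ratio of 6.11. Il10, an anti-inflammatory cytokine, and Ebi3, a subunit of interleukins 27 and 35, were closer to the threshold at 1.28 and 1.05, and Tgfb1 was at 0.03. Other cytokines were too low to be counted as tested. Il12b, a subunit of interleukin 12, had 4 UMIs untreated and 38 at 2 h, Il6 had 4 and 9, and Csf1, the growth factor M-CSF, had 3 and 40.

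All 18 tested genes on the list of NF-kB subunits and feedback inhibitors were at least 2-fold higher, against 3.52% of all tested genes. Their median log2 ratio was 2.71. Some members, such as Nfkbiz with 8 UMIs untreated and 654 at 2 h, were tested only through their 2 h UMIs. The highest ratios belonged to members other than the subunit genes. Nfkbia, which encodes the inhibitor IkB-alpha, had 88 CPM untreated and 1787 CPM at 2 h, a log2 ratio of 4.33, with 2 h pools between 1340.02 and 2039 CPM and untreated pools between 56.3 and 112.6 CPM. Nfkbiz, a nuclear IkB protein, was at a log2 ratio of 6.59, and Tnfaip3, which encodes the ubiquitin-editing enzyme A20, was at 5.98. The subunit genes Rel, Nfkb2, Relb, Rela and Nfkb1 were at 2.42, 1.55, 1.54, 1.33 and 1.03. Peli1, a ubiquitin ligase of the TLR pathway, was at 1.26, with 21.8 CPM untreated and 52.9 CPM at 2 h. When the UMIs of the 23 genes of the list were taken as a share of each cell's UMIs, the median cell held 0.0541% untreated and 0.541% at 2 h, and 180 of the 184 cells at 2 h lay above the highest untreated cell, which held 0.216%.

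Immediate-early transcription factors are genes whose transcription starts soon after a signal and needs no new protein. Of 13 tested members 11 were at least 2-fold higher, with a median of 1.61. Maff and Junb, members of the families that form AP-1, were at log2 ratios of 4.22 and 3.62, Atf3, a repressor of inflammatory genes, was at 3.23 with 33.4 CPM untreated and 319 CPM at 2 h, and Atf4 and Mafg were at 0.13 and -0.09. Fos had 18 UMIs untreated and 8 at 2 h, and Egr2 had 1 and 28. Of 8 tested genes on the list of MAP kinase phosphatases and ERK feedback, Dusp1 and Dusp2, which inactivate MAP kinases, and Gadd45b were higher at 4.79, 4.75 and 4.02, whereas Dusp6, the phosphatase specific for ERK, was lower at -1.43, with 77.1 CPM untreated and 28 CPM at 2 h. Its 4 pools at 2 h, from 17 to 38.8 CPM, lay below every untreated pool, which held for 30 tested genes or 0.599%. Inflammatory mRNA decay factors were higher in 5 of 11 cases. Zc3h12a, the endonuclease Regnase-1, and Zfp36, the protein tristetraprolin that directs Tnf mRNA to decay, were at 3.82 and 3.73, while the general decay factors Khsrp and Cnot1 were at -0.18 and -0.34.

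The list of LPS sensing and TLR signalling, which also holds the metabolic gene Irg1, changed in part. Of 13 tested members 4 were at least 2-fold higher and none lower. Irg1, which makes itaconate, an inhibitor of succinate dehydrogenase, had 1 UMI untreated and 344 at 2 h, a log2 ratio of 7.83 with an interval from 6.34 to 14.13. The kinase Ripk2 was at 3.92, the receptor Tlr2 at 3.21 and the LPS co-receptor Cd14 at 1.85, with 139 CPM untreated and 502 CPM at 2 h. Tlr4 was at -0.35 and its adaptor Myd88 at 0.40. On the list of inflammasome and interleukin 1 receptor genes, Nlrp3, the sensor that is limiting in resting macrophages, went from 2.43 to 313 CPM, a log2 ratio of 6.69, and Casp4, the intracellular LPS sensor called caspase-11 in mice, was at 1.55, the adaptor Pycard was at -0.77 and Casp1 at 0.14, and Txnip, which binds NLRP3, was the member that was lower, at -2.59. Of 12 tested genes of arginine, glucose and itaconate metabolism, 2 were higher, Irg1 and the transporter Slc2a6, and glycolytic enzymes such as Ldha at -0.28 and Tpi1 at -0.31 were within 1.5-fold. Nos2 had 1 UMI in each sample. Ptgs2, the inducible cyclooxygenase, had 0 UMIs untreated and 38 at 2 h, too few to be counted as tested.

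Of 19 co-stimulatory and activation molecules in the matrix 9 were tested, Cd69 among them through its 2 h UMIs alone. Of the 9, 8 were at least 2-fold higher, with a median of 3.60. Cd69, an early activation marker, had 0 UMIs untreated and was at 136.98 CPM at 2 h. This is 75.2-fold above the limit of 3 counts untreated, and the counting interval of the log2 ratio began at 5.92. The chemerin receptor Ccrl2 was at 5.15, the lectin Clec4e at 4.72, the adhesion molecule Icam1 at 3.60 and Cd40, the receptor for T cell help, at 2.34, with 35.8 and 183 CPM. Cd44 was at 0.36. None of 16 tested scavenger, phagocytic and Fc receptors passed 2-fold either way, with log2 ratios from -0.35 for Itgb2 to 0.76 for Msr1 and a median of 0.03. Of 17 further receptors 2 were higher, C5ar1 at 1.90 and Cx3cr1 at 1.76, while Csf1r, the M-CSF receptor, was at 0.22.

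Of 20 tested genes of the type I interferon response 5 were at least 2-fold higher, or 25% against 3.52% of all tested genes, and none was lower. The list held 50 genes, and the median of the 20 tested ones was 0.21. In wild-type cells the list's median was 0.06. Irf1, itself an NF-kB target, was at 4.01, Rsad2, which encodes the antiviral protein viperin, at 3.16 (3.17 in wild-type cells), Ifih1 at 2.35, Isg15 at 1.55 and Parp14 at 1.32. The Rsad2 level was 22.5 CPM untreated and 206 CPM at 2 h in Rad21-/- cells, and 91.3 and 828 CPM in wild-type cells. Irf1 was at 390 CPM at 2 h in Rad21-/- cells and at 318 CPM in wild-type cells, and the 2 h pools of the genotypes overlapped. Irf7 and Irf9, which carry the interferon signal, were at -0.49 and -0.58. Ifnb1, the gene of interferon beta, had 0 UMIs untreated and 2 at 2 h, both under the limit of 3 counts, so no fold is given. Wild-type cells had 0 and 55 Ifnb1 UMIs. Ifit1, an interferon target, had 15 and 42 UMIs in Rad21-/- cells, or 9.1 and 33.6 CPM, and its pools at 2 h overlapped the untreated pools. In wild-type cells Ifit1 was at 56.7 and 136 CPM.

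**Figure D3:**
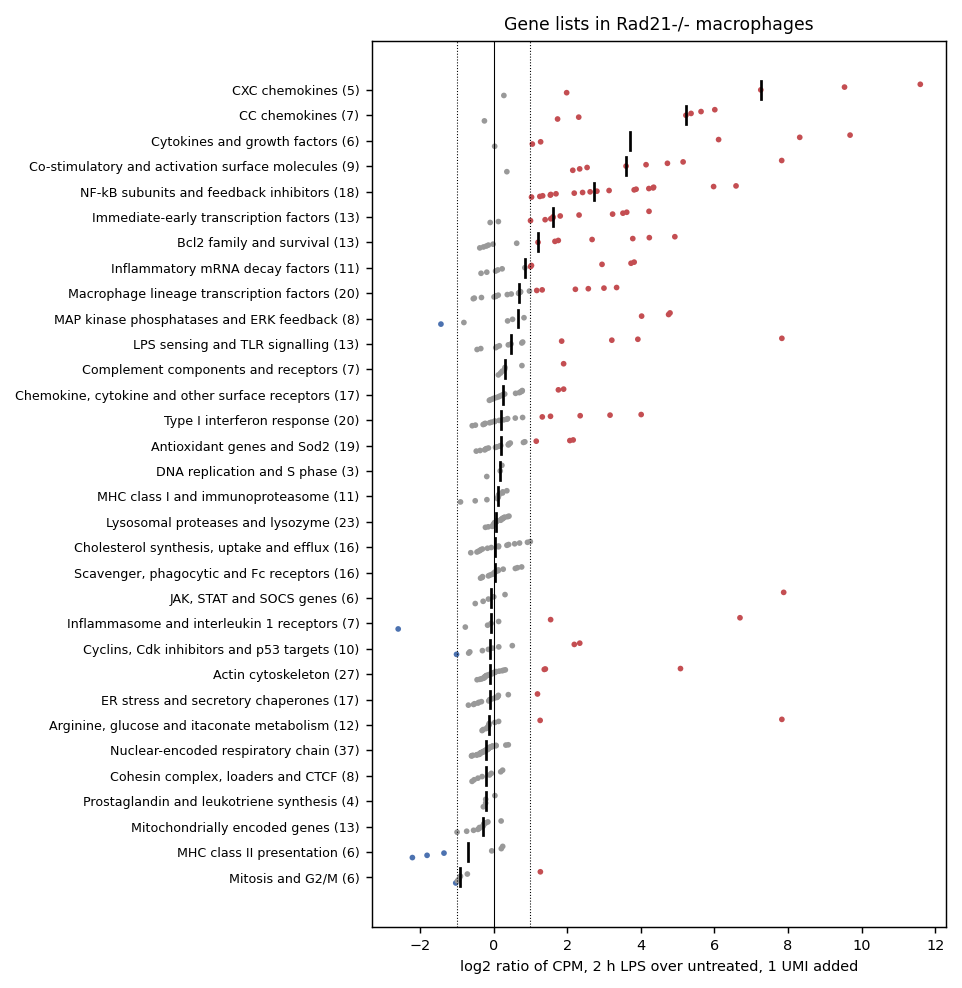
Log2 ratio of CPM at 2 h over untreated for each tested gene of the lists with at least 3 tested members, lists ordered by their median (black bar) with the number of tested genes in brackets, red at least 2-fold higher and blue at least 2-fold lower. The medians of chemokines, cytokines, co-stimulatory molecules and NF-kB regulators lie to the right of the dotted line at 2-fold, and all lysosomal, respiratory and cohesin genes lie between the dotted lines.

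The list of Bcl2 family and other survival genes, which holds members that promote cell death as well as members that prevent it, had 7 of 13 tested genes at least 2-fold higher, with a median of 1.21. Bcl2a1d was at 4.92 and the kinase Pim1 at 4.23, while Bax, Bid and Bad, which promote cell death, were at -0.14, -0.27 and -0.37. Bcl2a1a, Bcl2a1b and Bcl2a1d are near-identical copies, so the split of reads between them is uncertain. On the list of macrophage lineage transcription factors 6 of 20 were higher, led by the inhibitor of differentiation Id2 at 3.34, and Spi1, the lineage factor PU.1, was at 0.69. Of 10 tested cyclins, Cdk inhibitors and p53 targets 2 were higher and 1 was lower, with a median of -0.08. The higher ones were the p53 targets Mdm2 and Cdkn1a, the second an inhibitor of cyclin-dependent kinases, at 2.34 and 2.19. The lower one was Ccnd1, the cyclin that answers to M-CSF, at -1.01. Of 19 antioxidant genes 3 were higher. They were Sod2, the mitochondrial superoxide dismutase, at 2.16, the autophagy receptor Sqstm1 at 2.07 and Txnrd1 at 1.16. Marcksl1, a MARCKS-related protein that binds actin filaments, was at 5.08, and 3 of 27 actin cytoskeleton genes passed 2-fold, while Actb was at -0.03 with 5042 CPM untreated and 4927 CPM at 2 h.

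Several lists held no gene past 2-fold, as did most tested genes, of which 3.52% were higher and 0.879% lower. No gene passed 2-fold either way among 23 lysosomal genes, 37 nuclear-encoded genes of the respiratory chain, 16 genes of cholesterol metabolism, 11 genes of MHC class I presentation and 4 genes of prostaglandin and leukotriene synthesis, whose medians ran from -0.21 to 0.13. The 8 tested genes of cohesin, its loaders and CTCF lay between -0.58 for Smc3 and 0.25 for Wapl, also with none past 2-fold. In the complement list of 7 genes C5ar1 was higher, and in the ER chaperone list of 17 genes Herpud1 was. Of 6 JAK, STAT and SOCS genes, Socs3, the feedback inhibitor of interleukin 6 signalling, was higher, with 1 UMI untreated and 356 at 2 h and a log2 ratio of 7.88 (interval 6.39 to 14.18). None of the 16 acute-phase genes in the matrix was deep enough to be tested, and Saa3 had the most UMIs, 9 untreated and 63 at 2 h, of which 63.5% were in 1 cell.

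Pools lay apart for a smaller part of the 44 lower genes than of the higher ones, but the lower genes also moved less. Of the 44, 4 passed 4-fold, against 80 of the 176 higher genes. In 7 of the 44 the pools at 2 h lay wholly below the untreated ones, while 135 of the 176 higher genes had pools wholly above. Low counts held for both sets. Of the 44 lower genes 39 had fewer than 100 UMIs at 2 h, and of the 176 higher genes 144 had fewer than 100 untreated. Txnip, an inhibitor of thioredoxin and of glucose uptake whose mRNA turns over quickly, was lower throughout, from 192 to 31.2 CPM, a log2 ratio of -2.59 with an interval from -3.14 to -2.14. Its untreated pools lay between 146 and 256 CPM and its 2 h pools at 3.61, 22.6, 35.4 and 59.6 CPM. Hist1h2ap, a replication-dependent histone, had 141 UMIs untreated and 5 at 2 h, a log2 ratio of -4.16, and 5 untreated cells held 62.4% of the 141. Other genes with low ratios rested on a handful of cells. The MHC class II genes H2-Aa and H2-Ab1, which present antigen to CD4 T cells, were at -2.20 and -1.81, but 3 untreated cells held 85.4% of the 212 H2-Aa UMIs, and the share of cells with a UMI was 6.37% untreated and 6.52% at 2 h. Of the 189 untreated UMIs of 4933404O12Rik, 90.5% were in 1 cell. With each gene's highest cell left out, 25 genes instead of 44 were at least 2-fold lower. Leaving out the deepest of the untreated pools, of 47 cells, gave 24 lower genes and 168 higher ones.

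Genes of dividing cells had few UMIs. Of 6 tested genes of mitosis and G2/M, Cenpa was lower at -1.03 and Hmgb2, a chromatin protein that resting cells also make, was higher at 1.27, and the list had the lowest median, -0.92. The summed level of its 30 genes was 808 CPM untreated and 509 CPM at 2 h, with untreated pools from 412 to 1779 CPM and 2 h pools from 368 to 729 CPM. The summed level of 26 S phase genes was 515 and 429 CPM, and none of the 3 tested members passed 2-fold. The part of these genes in the lower histone values was not tested. None of 13 tested mitochondrially encoded genes passed 2-fold, with a median of -0.29. Mt-Rnr2, a mitochondrial ribosomal RNA with 34437 CPM untreated and 23635 CPM at 2 h, lost the most CPM of all tested genes, and mt-Atp6, a subunit of ATP synthase, was at -0.99. Their share of all UMIs varied among pools of the same sample, from 2.12% to 10.6% untreated and with values of 1.81%, 2.79%, 8.11% and 9.23% at 2 h, and the samples overlapped. The predicted genes Gm10717, Gm21738, Gm26870 and Gm43743 were at log2 ratios from -1.74 to -1.50, and in each the highest 2 h pool lay above the lowest untreated pool.

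The share of cells with at least 1 UMI was also counted. It depends on a gene's level as well as on how many cells responded. At 2 h 20 of the 176 higher genes were seen in at least 90% of cells and 89 in at least 50%, and 17 were seen in under 30%. None of the 267 untreated cells had a Cxcl1 UMI, a count of 0 that allows 1.12% of cells with one by the limit of 3 counts and 1.37% by the exact interval. At 2 h 181 of 184 cells had one, or 98.4% (95% Clopper-Pearson interval 95.3 to 99.7). Tnf was in 1.87% and 98.9% of cells, Ccl4 in 22.8% and 100%, Nfkbia in 37.5% and 99.5%, and Cxcl10 in 1.498% and 91.3%. Il1b, Socs3 and Nlrp3 reached 75%, 75.5% and 74.5%, Irg1 69% and Cd69 41.3%. Peli1 was in 12.7% and 26.1%. Txnip went the other way, from 64.4% to 13.6%. Since a share rises with depth, all cells were also thinned to 3900 UMIs, which left 216 untreated cells and 150 at 2 h. Tnf was then in 0.926% and 96.7% and Il1b in 0% and 59.3%.

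**Figure D4:**
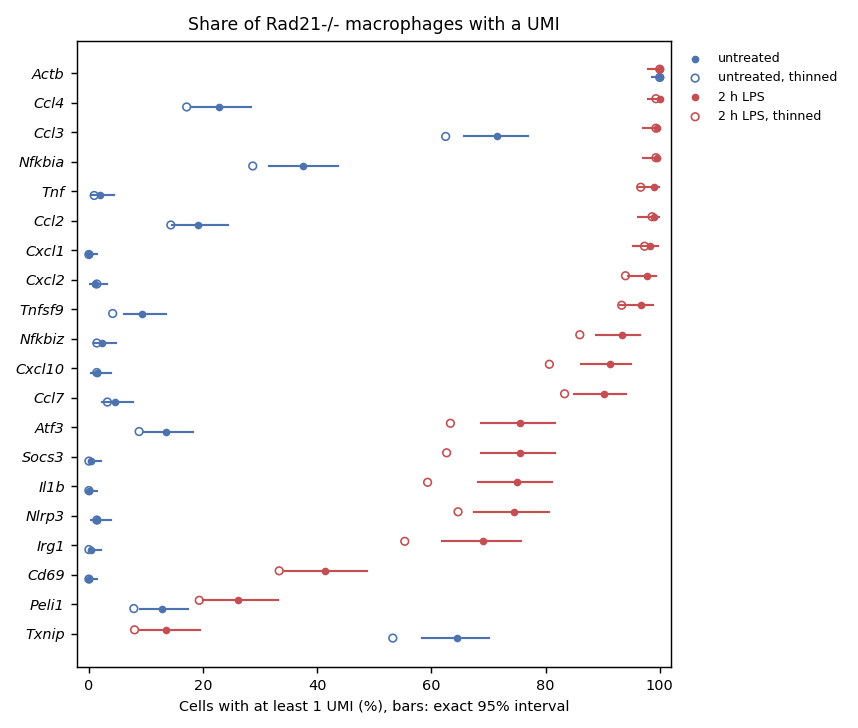
Share of Rad21-/- cells with at least 1 UMI for 20 genes, untreated (blue) and at 2 h (red), filled points with exact 95% intervals and open points after thinning every cell to 3900 UMIs. Cxcl1, Tnf and Cxcl2 lie near 0% untreated and above 90% at 2 h, Cd69 and Peli1 stay below 50%, Txnip is the gene whose red points lie left of its blue points, and Actb is at 100% in both.

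Among all 5005 tested genes, 165 or 3.3% had a share at least 20 points higher, 144 of them among the 176 higher genes, and 3 genes or 0.0599% had one at least 20 points lower, namely Txnip, mt-Atp6 and Rsrp1, the last chosen after its values were seen. After thinning 13 tested genes had a share at least 20 points lower. A log2 ratio can be divided between more positive cells and more UMIs in each of them. For the 173 higher genes with at least 1 UMI untreated, the first component had a median of 1.39 and the second of 0.42, and the first was greater in 157 genes. However, 144 of the 176 higher genes had fewer than 100 UMIs over all untreated cells. At such counts most positive cells hold 1 UMI, so a higher level appears first as more positive cells. The split therefore cannot tell a wider response from a stronger one for these genes. In 33 genes the level per positive cell alone was at least 2-fold higher, as for Ccl3, which had 4.82 UMIs per positive cell untreated and 18.9 at 2 h. At 2 h a cell held a median of 9 Cxcl1, 12 Ccl4 and 11 Nfkbia UMIs, in cells whose totals ran from 2550 to 21185 UMIs. Between the 8 genes with the largest gains, all 28 pairs had a positive Spearman correlation over the 150 thinned cells, from 0.17 for Ccl2 with Ccl4 to 0.56 for Cxcl1 with Cxcl2, with a median of 0.26. These cells share libraries and their sequencing, and no test was made.

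Several higher genes lay next to each other on the chromosome. Of 166 higher genes placed on GRCm38.p6, 14 had another higher gene within 100 kb, or 8.43%, and 4.21% of all 4557 placed tested genes had a higher gene that near. The groups were Ccl2 and Ccl7 (chr11:82035577-82047525), Ccl5, Ccl9, Ccl3 and Ccl4 (chr11:83525778-83664683), Cxcl1 and Cxcl2 (chr5:90891245-90905938), Cxcl10 with Art3 (chr5:92331799-92414628), Gdf15 with Jund on chromosome 8 and Clk1 with Nif3l1 on chromosome 1. The RefSeq interval of Art3 holds that of Cxcl10 and those of Ccl3 and Ccl4 overlap, and whether the counting used strand is not given in the sources used here, so the split of UMIs within both pairs is uncertain, for Art3, at a log2 ratio of 4.03, and for Ccl3 and Ccl4, in both genotypes.

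Wild-type cells of the same design, 238 untreated and 181 at 2 h, gave the response with Rad21 intact. The genotypes shared the 8 untreated pools and the 4 pools of at least 10 cells at 2 h, so pool does not separate them. In the 4371 genes tested in both genotypes, 159 genes or 3.64% were at least 2-fold higher in Rad21-/- cells and 141 or 3.23% in wild-type cells. The genes higher in both were 77.4% of the first set and 87.2% of the second. Of the 36 higher in Rad21-/- cells alone, 35 had a wild-type ratio above 0. All 18 higher in wild-type cells alone had a Rad21-/- ratio above 0. Over all 4371 genes the median log2 ratio was -0.09 in wild-type cells and -0.01 in Rad21-/- cells. With the wells over 25000 UMIs kept in all 4 samples, 5467 genes were tested in both, 248 were higher in wild-type and 183 in Rad21-/- cells, and 150 were shared. Such wells held 45.5% of the wild-type UMIs at 2 h and 11.9% of those of Rad21-/- cells. At least 2-fold lower were 35 genes or 0.801% in Rad21-/- cells and 68 or 1.56% in wild-type cells, with 10 in common, or 28.6% and 14.7% of each set. No gene was past 2-fold in opposite directions. A difference between the genotypes in the response could not be tested with 1 sample per condition.

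Among the genes higher in both the log2 ratio was larger in Rad21-/- cells for 74, or 60.2%, against 60.7% of all 4371 genes, with a median difference of 0.07. The levels on which these ratios rest were lower in Rad21-/- cells for most of them. At 2 h 89 of them, or 72.4%, had a lower CPM than wild-type cells, against 43.5% of all genes tested in both, and untreated 95, or 77.2%, did, against 52.9%. Ccl2 is an example, with 37.6 CPM untreated and 1900.1 CPM at 2 h in Rad21-/- cells and 443 and 7013 CPM in wild-type cells. Tnf reached 1160 CPM in Rad21-/- and 3058 CPM in wild-type cells, Cxcl2 1798 and 4833 CPM, and Cxcl10 1114 and 2676 CPM, while Nfkbia reached 1787 and 2273 CPM from 88 and 112 CPM, with a log2 ratio of 4.33 in both. Il1b and Nlrp3 were at 498 and 313 CPM at 2 h in Rad21-/- cells and at 413 and 223 CPM in wild-type cells, and the pools of the genotypes overlapped for both genes.

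The genes with the lowest log2 ratio in Rad21-/- cells relative to wild-type cells were Hist1h2ap, Cd74, Gm26917, Ccl3, Peli1 and Stmn1. For Ccl3 the log2 ratio was 2.31 against 4.18, from levels of 558 and 2777 CPM in Rad21-/- cells and of 297 and 5374 CPM in wild-type cells, so it was higher untreated and lower at 2 h in Rad21-/- cells. For Peli1 it was 1.26 against 2.78, with 52.9 and 308 CPM at 2 h. The genes with the highest relative ratio were Dusp6, Marcksl1, Gem, Jun, BC048502 and Irg1. Dusp6 was at -1.43 against -3.51, with 28 and 5.01 CPM at 2 h. Jun, an AP-1 subunit, was at 1.61 against -0.33, with 28.5 and 88.1 CPM in Rad21-/- cells and 58.1 and 45.9 CPM in wild-type cells. Irg1 was at 7.83 against 5.94, from 1 UMI untreated in Rad21-/- cells, and its level at 2 h was 276 CPM against 1189 CPM.

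**Figure D5:**
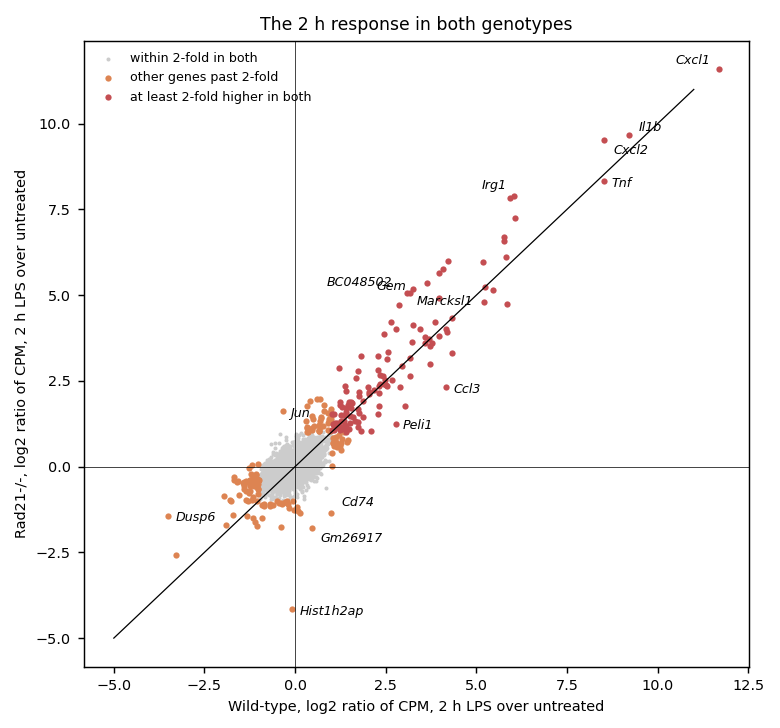
Log2 ratio of CPM at 2 h over untreated in wild-type cells (horizontal) and Rad21-/- cells (vertical) for the 4371 genes tested in both, with the diagonal at equality. The red genes at least 2-fold higher in both follow the diagonal up to Cxcl1, and Ccl3 and Peli1 lie below it, while Jun, Dusp6 and Irg1 lie above it.

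Among genes that the study followed by single-molecule RNA-FISH, the transcription factor Prdm1 had 53 and 67 UMIs in Rad21-/- cells and was within 2-fold. Sertad2 had 32 and 40 UMIs there, too few to be counted as tested. Their log2 ratios were 0.73 and 0.71, with counting intervals from 0.20 to 1.29 and from 0.02 to 1.44, which both reach past 2-fold. In wild-type cells their log2 ratios were 1.13 and 1.54, and for both genes the counting intervals of the genotypes overlapped. These counts do not separate the genotypes for either gene. The 2 h pools of both genes overlapped the untreated ones in both genotypes. Il12b reached 30.4 CPM in Rad21-/- and 86 CPM in wild-type cells, and Egr2, an immediate-early zinc finger protein, reached 22.4 and 48.4 CPM. Cd40 went from 35.8 to 183 CPM in Rad21-/- cells and from 20.8 to 123.6 CPM in wild-type cells. Atf3 went from 33.4 to 319 CPM in Rad21-/- cells and from 104 to 367 CPM in wild-type cells. For Cd40 and Atf3 the 2 h pools of the genotypes overlapped.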

How the data were processed

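Per the study's methods, the authors split the reads of each pool by cell barcode, trimmed polyT, mapped what was left to GRCm38, dropped wells by their spike-in, mapped and total reads, and collapsed reads of a gene that shared a UMI. The deposited values are UMI counts with no scaling. No column was left unassigned to a sample.

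Counts were summed per sample and scaled to CPM in Python 3.11.15 (numpy 2.4.6; pandas 2.3.3; scipy 1.17.1; matplotlib 3.10.9). Wells over 25000 UMIs were left out, and no doublet caller was run since cells were sorted singly. A ratio had 1 UMI added to each sum and an exact conditional interval without it. Thinning used the largest multiple of 100 UMIs kept by 80% of the cells of both samples. A count of 0 allows up to 3 counts. The code was tested on simulated data. Gene names were matched to RefSeq by symbol, and for promoters also by synonym.

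The cells, gene lists and markers were chosen with earlier results of these data known. Named genes are the 12 with the highest and lowest ratio, the 8 with the largest gain and loss in CPM, the 2 highest and lowest and the deepest of each of 33 lists, others of a list beside its count, the genes followed by smRNA-FISH, Rad21, and the 6 that differ most each way between genotypes. Genes beside the thresholds or sharing a neighbourhood were named after their values were seen. Alternatives were another scaling, equal weight per cell or pool, thinning, other depth, filter, prior and fold limits, and leaving out each pool. The bulk and imaging experiments were not analysed here. A gene among those followed by smRNA-FISH is not reported here.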

Additional observations from a re-analysis of the deposited data

Results flagged for a closer look

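The 2 genes below were past 2-fold in Rad21-/- cells and lay in the opposite direction in wild-type cells, with both counting intervals apart from no change. The difference between the genotypes was not tested, since each condition was 1 sample. Cd74, the invariant chain of MHC class II, was at a log2 ratio of -1.35 in Rad21-/- cells and 0.99 in wild-type cells. In Rad21-/- cells 5 untreated cells held 82.1% of its 526 UMIs, and its share of cells was 23.2% untreated and 27.2% at 2 h. Gm26917, a predicted gene, was at -1.78 in Rad21-/- cells and 0.46 in wild-type cells. The highest untreated Rad21-/- cell held 43.8% of its 299 UMIs there, and the highest wild-type cell at 2 h held 187 of 267.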

How the results depend on the processing

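The main counts were 176 genes at least 2-fold higher and 44 lower. The number of genes tested set much of them. Thinning, which left 2316 tested genes, gave 88 and 16, a minimum of 30 UMIs with no share of cells gave 414 and 292 of 11010, and a minimum of 300 UMIs gave 66 and 9 of 1469. A fold of 1.5 gave 394 and 246 and a fold of 4 gave 80 and 4. With 1 pool left out at a time, between 24 and 46 genes were lower and the higher count stayed within 1.5 times of its value. Without each gene's highest cell, an alternative chosen after the data were seen, 25 were lower. Of the shares, 13 genes instead of 3 were at least 20 points lower after thinning, and 97 instead of 165 were at least 20 points higher when a positive cell needed 2 UMIs. Other scalings, weights and priors stayed within 1.5 times of the main counts, and so did the number of genes higher in both genotypes with deep wells kept or another scaling, both chosen after the data were seen. Of 3938 values of named genes under an alternative, 2 had the opposite sign, both of 4933404O12Rik, which was at -3.17, lay between -3.52 and 0.36 with 1 pool left out and at 0.15 without its highest cell. No list median past 2-fold changed sign.

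No paired analysis was possible because each group was 1 sample, and the pools, which the genotypes share, are divisions of a sample and not replicates. With no replicate per condition, the spread between cultures is unknown, and the effect of time cannot be told apart from that of pools. Genes with under 100 UMIs over both samples, such as Ifnb1, Il6 and Il12b, are limited by depth. Cxcl1, Il1b and Cd69 had no untreated UMI, so their log2 ratios in the figures depend on the added UMI.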

Other observations

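Of the 176 higher genes, 80 were on none of the lists. Gem, a small GTPase that limits calcium channels, was at 1.82 CPM untreated and 88.1 CPM at 2 h in Rad21-/- cells. Gdf15, a stress-induced cytokine of the TGF-beta family chosen here after its values were seen, went from 56 to 531 UMIs, a log2 ratio of 3.62, and from 14.6% to 71.7% of cells. Of the 44 lower genes, 37 were on no list, and 8 were predicted genes with names that begin with Gm, or 18.2%, against 12.7% of tested genes.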
